A study of Mus musculus with 8 samples.

Results

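The genes described here are those of retinoic acid synthesis, breakdown and response, 9 of the 24341 genes in the deposited expression table. They are the retinaldehyde dehydrogenases *Aldh1a1*, *Aldh1a2* and *Aldh1a3*, the Cyp26 enzymes *Cyp26a1*, *Cyp26b1* and *Cyp26c1*, the cellular retinoic acid binding proteins *Crabp1* and *Crabp2*, and the receptor gene *Rarb*. They were taken by gene symbol, and all 9 were found. The group was selected on the FPKM difference between the genotypes in these same buds, which was already known, so the genotype differences of the 9 genes are given as description, without a test.

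Total RNA was sequenced from 8 mouse pancreas buds at E11.0, about 40 somites. The strain is given as CD1, which the study's methods name for WT analyses, with the floxed and Cre lines named otherwise. The 5 control buds are labelled WT, though the study's methods speak of WT or heterozygous littermates as controls in general, and the 3 *Lats1/2PanKO* buds were *Pdx1Creearly;Lats1f/f;Lats2f/f*, in which Cre under the *Pdx1* promoter removes the floxed Hippo kinase genes *Lats1* and *Lats2* from pancreatic progenitors and leaves other cell types of the bud undeleted. Mesenchyme had been pulled off each bud with forceps, each bud made 1 library, and expression is given as FPKM, the number of fragments scaled for transcript length and for the size of the library. The comparison asks how the retinoid genes stood in the bud soon after the kinases were deleted.

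Retinol is carried by binding proteins and oxidized to retinaldehyde, and the retinaldehyde dehydrogenases then make retinoic acid in an irreversible step. Cyp26 enzymes hydroxylate retinoic acid and so clear it, while CRABP proteins hold it in the cytosol. In the nucleus it binds RAR receptors paired with RXR, which sit on direct repeats of a short half-site and control nearby genes, *Rarb* and *Cyp26a1* among them. In the early pancreas, *Aldh1a2* is known mainly from the mesenchyme and mesothelium around the epithelium, and retinoic acid from these cells is required for growth of the dorsal bud.

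Promoter sequence was taken from RefSeq (GRCm38.p6), in which 7 of the 9 genes had an entry and *Aldh1a1* had 2. The first pair of sequences is shown because it holds the kind of element that the receptors bind. Capitals mark a direct repeat of half-sites with 5 bases between them. The *Rarb* run is chr14:16575507-16575536 on the minus strand, and the *Cyp26a1* run is chr19:37697770-37697799, read on the minus strand although the gene lies on the plus strand.
Rarb: cgggaagGGTTCACCGAAAGTTCActcgca
Cyp26a1: acaaattAGTTCACCCAAAGTTCAtcttta

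The repeat ended 36 bases before the RefSeq start of *Rarb* and 15 bases before that of *Cyp26a1*, and the pair were identical at 15 of 17 bases. The 250 bases before the *Rarb* start overlap annotated exons of *Rarb* itself and of the antisense gene *Gm48162*. Those before the *Cyp26a1* start overlap an annotated exon of *Cyp26a1*. The search took either half-site to be AGGTCA or else AGTTCA or else GGTTCA or else GGGTCA, on both strands of the 250 bases before the start. Of all 32851 RefSeq windows, 29 held such a repeat, or 0.0883%, and of the 46 other retinoid pathway genes with a window 0 did. Repeats of the same half-sites with 1 base between them (0.164% of windows) or 2 bases (0.174%) matched in none of the 8 windows of the 7 genes.

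The second pair is shown because these genes stood apart between the genotypes, in opposite directions. Capitals mark an octamer ATGCAAAT and a CCAAT box. The *Aldh1a2* run is chr9:71215659-71215778 on the plus strand, and the *Aldh1a1* run, from the downstream of its 2 windows, is chr19:20601838-20601957 on the plus strand.
Aldh1a2: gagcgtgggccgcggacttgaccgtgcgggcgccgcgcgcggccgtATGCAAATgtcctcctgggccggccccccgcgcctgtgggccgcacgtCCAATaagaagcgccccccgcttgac
Aldh1a1: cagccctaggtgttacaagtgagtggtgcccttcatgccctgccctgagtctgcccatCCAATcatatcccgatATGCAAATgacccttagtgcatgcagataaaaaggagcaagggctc

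Both of these windows hold both motifs, in opposite order. The upstream *Aldh1a1* window holds neither, nor does that of *Cyp26b1*, which also stood apart between the genotypes. The octamer is in 1.6% of all windows and the CCAAT box in 33.8%, on either strand. The *Aldh1a2* window had 40 CpG dinucleotides and 77.6% GC, where the median window had 6 CpG and 1.31% of windows had as many as *Aldh1a2*. The downstream *Aldh1a1* window had 1 CpG and 46.4% GC, and it overlaps an annotated exon of *Aldh1a1*. The core letters of the TEAD site, GGAATG, through which the coactivators under *Lats1/2* control act, were found in the windows of *Crabp1* and *Rarb* and in the upstream window of *Aldh1a1*, beside 12.6% of all windows. These matches are letters in a window, and no binding was measured.

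The 8 libraries were of like depth, except that 1 fragment was worth 1.28 times as much FPKM in WT replicate 5 as in WT replicate 1, against 0.970 to 1.04 times in the others. *Lats1* ranged from 14.1 to 16.6 FPKM in WT buds and read 12.3, 13.8 and 10.1 FPKM in *Lats1/2PanKO* buds, with no overlap. *Lats2* ranged from 11.6 to 14.7 FPKM in WT buds and read 13.4, 12.3 and 11.1 FPKM in the mutants, and its groups overlapped. Transcripts of both genes therefore remained in the mutant buds, as whole-gene values that also count exons outside the deleted part and cells outside the Cre lineage. Epithelium markers summed to 599, 501 and 1200 FPKM in the 3 mutants against 270 to 347 FPKM in WT buds, and *Lats1/2PanKO* replicate 3 stood apart from the other mutants in this sum. In a whole bud, fewer cells of a type and less RNA per cell cannot be told apart.

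*Aldh1a2*, *Crabp1* and *Crabp2* were the abundant retinoid genes of WT buds, at means of 19.3, 20.2 and 20.1 FPKM, and their ranges overlapped. *Rarb* at 3.48 FPKM and *Cyp26b1* at 2.59 FPKM followed, again with overlapping ranges. *Aldh1a1* averaged 0.224 FPKM in WT, and *Cyp26a1*, *Aldh1a3* and *Cyp26c1* averaged 0.0954, 0.0871 and 0.0422 FPKM. In *Lats1/2PanKO* buds the order was *Crabp1* at 17.7 FPKM, *Crabp2* at 14.6, *Aldh1a2* at 5.25, *Rarb* at 3.29, *Aldh1a1* at 1.63 and *Cyp26b1* at 0.697 FPKM. *Aldh1a2* no longer shared a range with either *Crabp* gene there, whereas *Aldh1a1* and *Cyp26b1* overlapped.

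**Figure D1:**
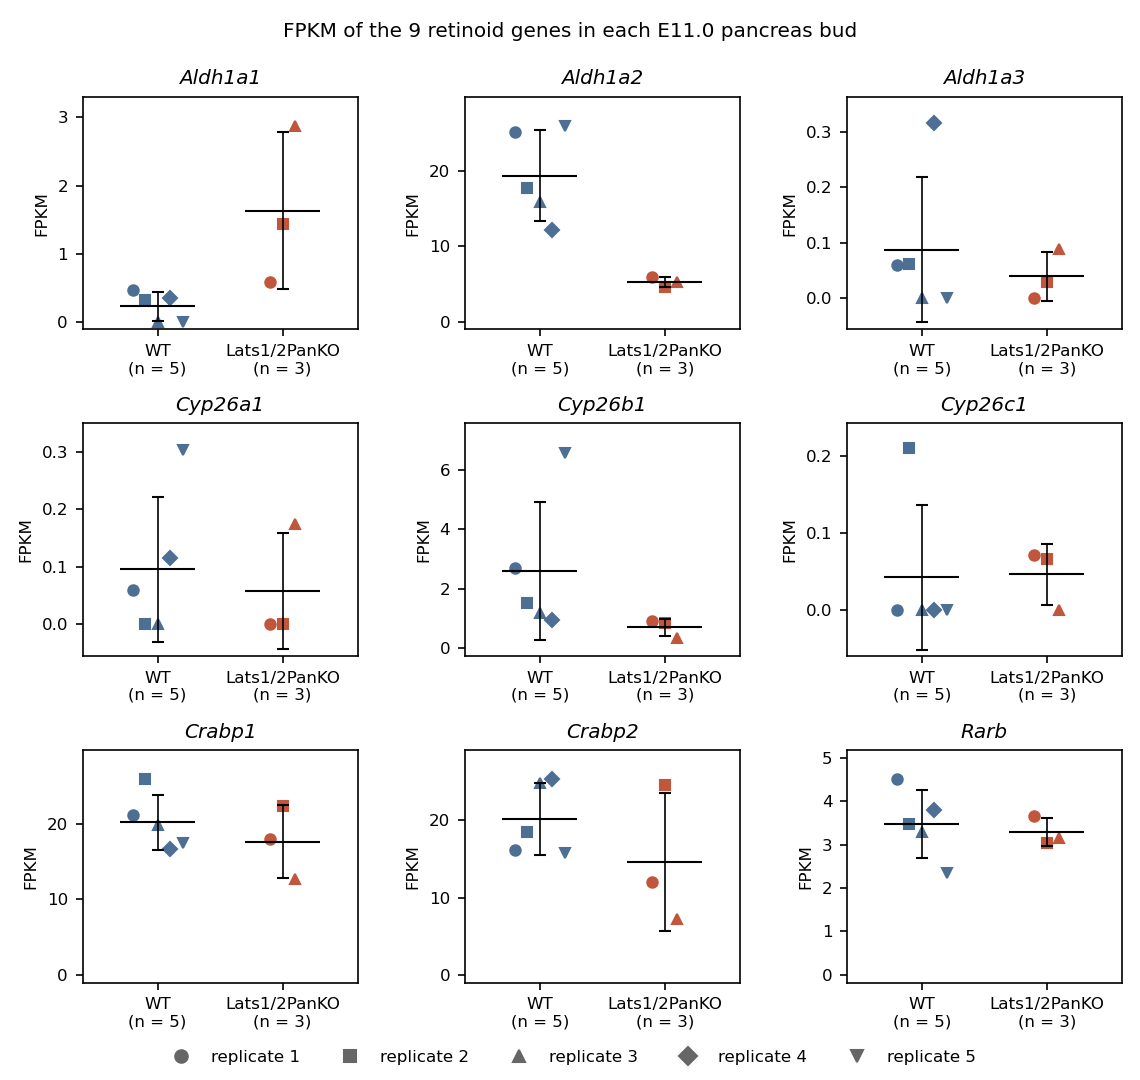
FPKM of the 9 retinoid genes in each bud, 1 panel per gene with its own axis; each point is 1 bud, 5 WT and 3 Lats1/2PanKO, and the bar is the group mean. Aldh1a2 reads 12.2 to 25.9 FPKM in WT and 4.59 to 5.91 in Lats1/2PanKO, Aldh1a1 and Cyp26b1 also have groups that do not overlap, and the other 6 genes overlap.

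Of the 9 genes, 6 averaged 0.5 FPKM or more in the 8 buds and entered the fit over all genes. Of these 6, 5 were lower in *Lats1/2PanKO* and 1 was higher, where 53.1% of the 13777 genes in the fit were lower. The groups did not overlap for 3 of the 6, *Aldh1a2* and *Cyp26b1* lower and *Aldh1a1* higher, where 7.51% of all genes did not overlap, 3.06% lower and 4.46% higher. *Aldh1a1*, at means of 0.224 FPKM in WT and 1.63 FPKM in *Lats1/2PanKO*, entered the fit only through the mutants, where it is high. Over all genes, 0.0145% passed an adjusted p of 0.05 by limma and 11.3% an unadjusted p of 0.05. The median difference of the 6 was -0.38 on the log2(FPKM + 1) scale, against -0.01 over all genes. The genes were chosen with this contrast known, so nothing is read from these counts.

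*Aldh1a2* (chromosome 9, 71215789 to 71296243) encodes the main retinoic acid making enzyme of the early embryo. It read 25.1, 17.7, 15.8, 12.2 and 25.9 FPKM in WT replicates 1 to 5 and 5.91, 4.59 and 5.25 FPKM in *Lats1/2PanKO* replicates 1 to 3. The 3 mutant buds lay close together and all below the lowest WT bud, while the WT buds themselves spanned 2.12-fold. The means were 19.3 ± 5.98 FPKM (SD, n = 5) and 5.25 ± 0.662 FPKM (SD, n = 3), a 3.69-fold lower level in the mutant, and the fold lay between 3.37 and 4.03 when each bud was left out in turn. The difference was -1.66 ± 0.23 (SE) on the log2(FPKM + 1) scale, and 33 of the 13777 genes, or 0.240%, had a more negative value.

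*Aldh1a1* (chromosome 19, 20601982 to 20643462) encodes a second dehydrogenase, known for broader substrates and for expression in several epithelia. It read 0.460, 0.315, 0, 0.348 and 0 FPKM in WT and 0.584, 1.44 and 2.87 FPKM in *Lats1/2PanKO*. Every mutant bud was above every WT bud, but the gap between the highest WT bud and the lowest mutant was narrow. A step was fitted to these values after scaling for depth, the largest for which every value of up to 12 steps came within 0.1 of a whole number. No bud was at a single step. Taken as 1 fragment, this step puts the WT buds at 9, 6, 0, 7 and 0 fragments and mutant replicate 1 at 11, so the gap was about 2 fragments, and mutant replicates 2 and 3, past the fitted range, at about 29 and 57. The means were 0.224 ± 0.212 FPKM (SD, n = 5) and 1.63 ± 1.16 FPKM (SD, n = 3), 7.27-fold higher in the mutant. Without *Lats1/2PanKO* replicate 3 the ratio was 4.50, the lowest when each bud was left out. The difference was 1.03 ± 0.28 (SE) on the log2(FPKM + 1) scale, which understates the change of so low a gene.

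*Aldh1a3* (chromosome 7, 66390893 to 66427477), the dehydrogenase known from eye and nasal development, was close to the limit of detection. It was listed at 0 in WT replicates 3 and 5 and in *Lats1/2PanKO* replicate 1, and elsewhere ranged from 0.0286 to 0.316 FPKM. With its smallest value taken as 1 fragment these were 1 to 11 fragments, the 11 all in WT replicate 4, and no difference between the genotypes was detectable at this depth.

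Summed over the 3 dehydrogenases, the transcript level was 12.9 to 25.9 FPKM in WT buds and 6.05 to 8.21 FPKM in *Lats1/2PanKO* buds. *Aldh1a1* made up 0 to 2.70% of the sum in WT and 9.0%, 23.7% and 35.0% in mutant replicates 1 to 3. The makeup of the mutant buds thus varied more between buds than their *Aldh1a2* level did, and in every mutant *Aldh1a2* was still the larger part.

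**Figure D2:**
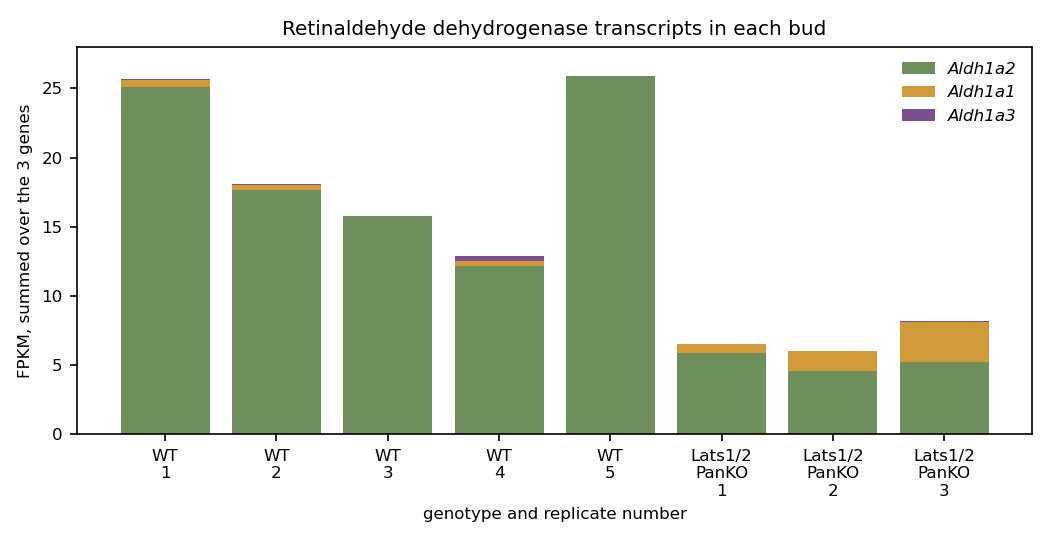
Stacked FPKM of Aldh1a2, Aldh1a1 and Aldh1a3 in each of the 8 buds; bar height is the sum of the 3 genes, and the axis starts at 0. The WT bars reach 12.9 to 25.9 FPKM and are almost wholly Aldh1a2, and the Lats1/2PanKO bars reach 6.05 to 8.21 FPKM with an Aldh1a1 part of 9.0% to 35.0%.

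*Cyp26b1* (chromosome 6, 84571414 to 84593908), the Cyp26 enzyme known for limiting retinoic acid in mesenchymal tissues, read 2.71, 1.52, 1.18, 0.963 and 6.57 FPKM in WT and 0.899, 0.838 and 0.355 FPKM in *Lats1/2PanKO*. The groups did not overlap, but WT replicate 4 and mutant replicate 1 were close, and the WT buds spanned 6.83-fold. The means were 2.59 ± 2.33 FPKM (SD, n = 5) and 0.697 ± 0.298 FPKM (SD, n = 3), a 3.71-fold lower level in the mutant. Without WT replicate 5, the bud with the highest level and the lowest depth, the fold was 2.29 and the difference on the log2(FPKM + 1) scale went from -0.90 ± 0.41 (SE) to -0.58.

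*Cyp26a1* (chromosome 19, 37697808 to 37701536), an enzyme whose own gene is switched on by retinoic acid, was listed at 0 in WT replicates 2 and 3 and in mutant replicates 1 and 2. It reached 0.303 FPKM in WT replicate 5 and 0.174 FPKM in *Lats1/2PanKO* replicate 3, which were 4 and 3 fragments on the same reading. *Cyp26c1* (chromosome 19, 37685680 to 37693307) lies 4500 bases from *Cyp26a1* on the same strand. It was at 0 in 4 of 5 WT buds and 1 of 3 mutants, and its highest value was 0.211 FPKM, or 3 fragments, in WT replicate 2. For neither gene was a difference between the genotypes detectable at this depth.

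The ratio of *Aldh1a2* to *Cyp26b1* FPKM set synthesis beside breakdown within each bud. It was 9.27, 11.7, 13.3, 12.7 and 3.94 in WT and 6.57, 5.47 and 14.8 in *Lats1/2PanKO*. The groups overlapped, so the lower *Aldh1a2* of the mutants was not matched by a lower ratio to *Cyp26b1* in every bud.

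*Crabp1* (chromosome 9, 54764748 to 54773110), a cytosolic retinoic acid binding protein, read 21.2, 25.9, 19.8, 16.7 and 17.4 FPKM in WT and 18.0, 22.3 and 12.6 FPKM in *Lats1/2PanKO*. Mutant replicates 1 and 2 were inside the WT range and replicate 3 was below it. The means were 20.2 ± 3.66 FPKM (SD, n = 5) and 17.7 ± 4.86 FPKM (SD, n = 3). The difference of -0.20 ± 0.19 (SE) was about as large as its error, and it was 0.01 without *Lats1/2PanKO* replicate 3.

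*Crabp2* (chromosome 3, 87948693 to 87953372), the binding protein known to hand retinoic acid to the receptor, read 16.1, 18.5, 24.8, 25.3 and 15.7 FPKM in WT and 12.04, 24.5 and 7.21 FPKM in *Lats1/2PanKO*. Mutant replicate 2 was among the high WT buds, and the other mutants were below all WT buds. The means were 20.1 ± 4.66 FPKM (SD, n = 5) and 14.6 ± 8.94 FPKM (SD, n = 3), so the mutant spread exceeded the difference between the means. The difference was -0.57 ± 0.33 (SE) on the log2(FPKM + 1) scale, -0.18 without mutant replicate 3 and -1.001 without mutant replicate 2.

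*Rarb* (chromosome 14, 16430840 to 17082331) encodes a retinoic acid receptor and is itself a textbook retinoic acid target. It read 4.51, 3.48, 3.30, 3.79 and 2.34 FPKM in WT and 3.66, 3.05 and 3.15 FPKM in *Lats1/2PanKO*. All 3 mutants lay inside the WT range. These are whole-gene values. The RefSeq start described above lies inside the *Rarb* locus, so transcripts that begin elsewhere may be counted too. The means were 3.48 ± 0.789 FPKM (SD, n = 5) and 3.29 ± 0.329 FPKM (SD, n = 3), and the difference was -0.05 ± 0.16 (SE), between -0.15 and 0.03 when each bud was left out.

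Among 63 other genes of the retinoid pathway, 44 had enough signal for the fit, and 0 passed an adjusted p of 0.05 by limma with Benjamini-Hochberg adjustment over all 13777 genes. At an unadjusted p under 0.05, 2 were higher and 10 lower, where 6.29% of all genes were higher and 4.99% lower. The 12 together became 3 without *Lats1/2PanKO* replicate 3. These lists too were drawn up with earlier results of the data known.

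Genes of retinol uptake, transport and storage numbered 6 in the fit, with 4 higher in *Lats1/2PanKO* and a median of 0.24, which was 0.09 without *Lats1/2PanKO* replicate 3 and 0.04 with array weights. *Rbp4*, the retinol carrier of blood, averaged 69.0 ± 6.73 FPKM in WT and 99.8 ± 35.0 FPKM in the mutants (limma unadjusted p = 0.0298, adjusted p = 0.387), and reached 139 FPKM in mutant replicate 3. Its difference was 0.48 on the log2(FPKM + 1) scale and 0.21 without that replicate, and no gene of this list had an unadjusted p under 0.05 without *Lats1/2PanKO* replicate 3 or WT replicate 1, 3 or 4. Liver markers, among which *Ttr* and *Afp* were the most abundant, summed to 109 to 192 FPKM in WT and to 157 to 455 FPKM in the mutants, and whether they had a part in the *Rbp4* value was not tested. *Ttr* made up most of this sum, at 83.1 to 142 FPKM in WT and 107 to 318 FPKM in the mutants. The study lists *Afp* among known TEAD targets, and whether the higher *Afp* of the mutants came from liver cells was not tested. *Stra6*, the retinol uptake receptor, was at 9.90 FPKM in WT and 7.29 FPKM in the mutants.

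Of 9 oxidoreductases, which interconvert retinol and retinaldehyde, 6 were lower and the median was -0.05. *Adh5*, a ubiquitous alcohol dehydrogenase, was at 75.5 FPKM in WT and 63.4 FPKM in the mutants, with no overlap (limma adjusted p = 0.330). *Dhrs4* was at 30.3 and 29.04 FPKM, and *Rdh11* at 9.48 and 8.33 FPKM. Of 12 nuclear receptors, carriers and cofactors, 10 were lower with a median of -0.08. *Rarg*, the receptor gene next to *Rarb* in kind, was at 3.95 FPKM in WT and 5.62 FPKM in *Lats1/2PanKO*, a difference of 0.41 ± 0.14 (SE) with limma unadjusted p = 0.0134 and adjusted p = 0.315. Without *Lats1/2PanKO* replicate 3 no gene of the receptor list had an unadjusted p under 0.05, and the medians turned to 0.01 for this list and 0.08 for the oxidoreductases. The carrier *Fabp5* was at 344 and 323 FPKM, and the corepressor *Ncor1* was at 66.9 and 63.7 FPKM.

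Of 17 genes known to respond to retinoic acid, 15 were lower in the mutants, where 53.1% of all genes were lower. For 9 of the 17 the unadjusted p was under 0.05, where 4.99% of all genes were lower at that threshold, and the median was -0.40. The 9 were the nuclear receptors *Nr2f2* and *Nr2f1*, the homeobox gene *Meis1*, the Hox genes *Hoxa4*, *Hoxa5*, *Hoxb1*, *Hoxb4* and *Hoxb5*, and *Rarres2*. *Hoxa5* averaged 33.0 FPKM in WT and 19.7 FPKM in the mutants, a difference of -0.78 ± 0.25 (SE) with limma adjusted p = 0.302, the smallest adjusted p of these 9. *Hoxb1*, an early retinoic acid target, had the largest difference at -1.21 ± 0.46 (SE), from 8.87 to 3.24 FPKM. *Nr2f2* was at 181 and 141 FPKM, *Meis1* at 95.4 and 76.5, and *Meis2*, which did not pass the unadjusted threshold, at 105 and 89.2 FPKM. Without *Lats1/2PanKO* replicate 3, 2 of the 17 had an unadjusted p under 0.05 and the median was -0.20, and without replicate 2 the count was 10. The median was -0.26 without WT replicate 5 and -0.22 with array weights. Many of these genes are also expressed in mesenchyme, whose markers had a median of -0.47 over 17 genes, or -0.16 without *Lats1/2PanKO* replicate 3, and their part in the responsive genes' values was not tested.

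**Figure D3:**
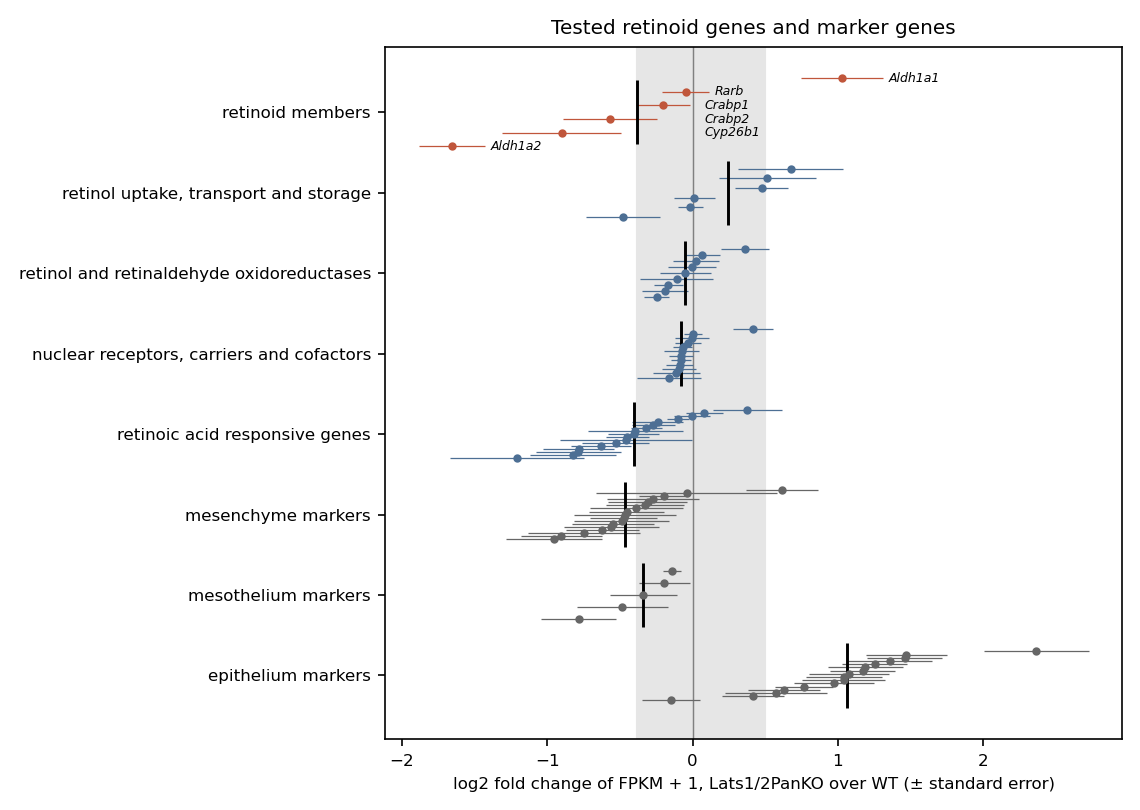
Difference between Lats1/2PanKO and WT on the log2(FPKM + 1) scale for each gene in the fit, with its standard error, in rows for the retinoid members, 4 retinoid pathway lists and 3 marker lists. The black bars are the lists' medians, -0.38 for the members, -0.40 for the retinoic acid responsive genes, -0.47 for mesenchyme markers and 1.06 for epithelium markers, and the grey band spans the 5th to the 95th percentile of all genes in the fit, -0.38 to 0.50.

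The cell types of the bud were set beside *Aldh1a2*, since this gene is known from cells that were partly removed by hand. Mesenchyme markers, of which *Barx1* and *Col3a1* were the most abundant, summed to 704 to 941 FPKM in WT and to 549.6, 753 and 327 FPKM in mutant replicates 1 to 3, and 16 of 17 were lower. Mutant replicate 2 had a mesenchyme sum within the WT range, and its *Aldh1a2*, 4.59 FPKM, was the lowest of the 8 buds. Per 100 FPKM of mesenchyme markers, *Aldh1a2* was at 1.46 to 3.30 FPKM in WT and at 0.609 to 1.61 FPKM in *Lats1/2PanKO*, and these ranges overlapped. *Barx1* was a large part of this sum, at 173 to 500 FPKM in WT and 115 to 302 FPKM in the mutants. The overlap came from WT replicate 4, with *Barx1* at 359 of 835 FPKM, and mutant replicate 3, with 115 of 327 FPKM. With *Barx1* left out of the sum, the groups no longer overlapped, though the gap between these buds was narrow.

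Of 10 mesothelium markers, 9 were found in the table and 5 entered the fit, all lower, with a median of -0.34, which was -0.14 without *Lats1/2PanKO* replicate 3 and -0.21 without either WT replicate 2 or *Lats1/2PanKO* replicate 1. *Podxl*, which other cell types also express, made up 74.4% of their sum. The full sum was 44.4 to 57.0 FPKM in WT and 39.0 to 43.6 FPKM in the mutants, with no overlap. The sum without *Podxl* was 9.74 to 20.0 FPKM in WT and 6.74 to 10.5 FPKM in the mutants, with overlap, and *Wt1* ranged from 3.97 to 9.62 FPKM and from 2.19 to 6.45 FPKM. Per 100 FPKM of the full list, *Aldh1a2* was at 25.9 to 56.2 FPKM in WT and at 10.5 to 13.6 FPKM in the mutants, and per 100 FPKM without *Podxl* at 88.5 to 266 and at 43.9 to 77.9 FPKM, with no overlap either way.

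Endothelium markers, led by *Cdh5* and *Kdr*, were also lower, 10 of 10 with a median of -0.40, or -0.24 without *Lats1/2PanKO* replicate 3 and also with array weights. Their sums overlapped at 129 to 204 FPKM in WT and 91.1 to 143 FPKM in the mutants. Epithelium markers were higher in 15 of 16 genes with a median of 1.06, and *Krt18* and *Krt8* were the most abundant. The median was 0.69 without *Lats1/2PanKO* replicate 3. Neural crest and nerve markers had a median of 0.32, or 0.12 without that replicate, and sums of 25.5 to 31.7 FPKM in WT and 29.2 to 57.9 FPKM in the mutants. Of their most abundant genes, *Ednrb* averaged 7.82 FPKM in WT and 6.22 FPKM in the mutants, and *Erbb3* 4.11 and 11.3 FPKM. Across the 8 buds, Pearson r of *Aldh1a2* with the marker sums on the log2 scale was 0.77 for endothelium and 0.63 for mesenchyme. It was 0.72 for the full mesothelium list and -0.77 for epithelium. Within the 5 WT buds alone these were 0.87, -0.09, 0.34 and 0.40. For *Cyp26b1* and endothelium, r was 0.88, and 0.89 within WT. These are descriptions of few buds. The part of any of these cell types in the retinoid genes' differences was not tested.

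**Figure D4:**
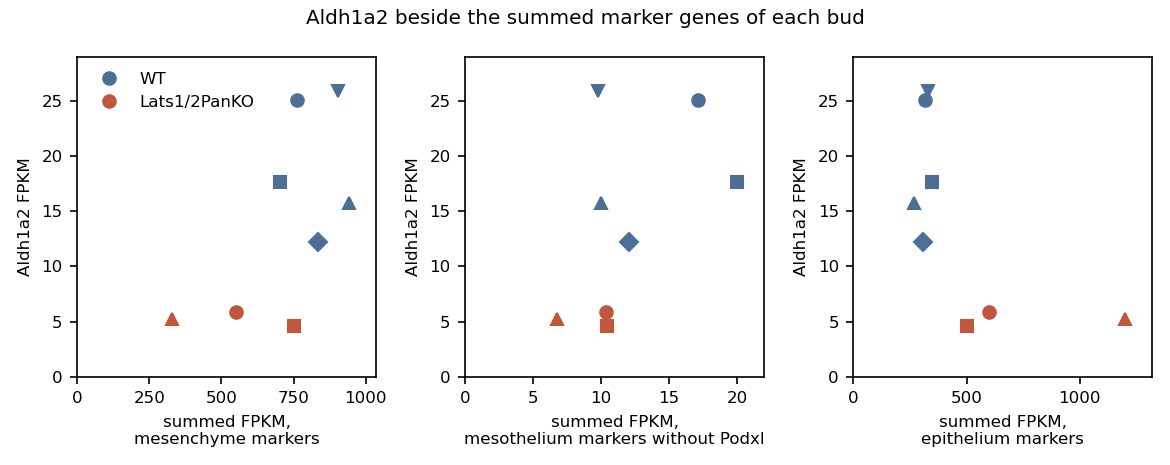
Aldh1a2 FPKM of each bud against the summed FPKM of mesenchyme markers, mesothelium markers without Podxl and epithelium markers; each symbol is 1 bud, its shape the replicate number and its colour the genotype. The 3 Lats1/2PanKO buds lie between 4.59 and 5.91 FPKM of Aldh1a2 over mesenchyme sums from 327 to 753 FPKM, and 1 of them lies inside the WT range of 704 to 941 FPKM.

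For each of the 6 genes in the fit, the genes with the most alike pattern over the 8 buds were sought among 11463 genes by Pearson r of log2(FPKM + 1). *Aldh1a2* was most like *H60b* (r = 0.97), which was at 5.74 FPKM in WT and 2.41 FPKM in the mutants, and *Wrn* (r = 0.97). *Aldh1a1* was most like *Rrm2b* (r = 0.99) and *Kcnk1* (r = 0.98), and *Kcnk1* was at 5.65 and 11.5 FPKM. *Cyp26b1* was most like *Zswim6* and *Camk2g* (both r = 0.99), which share its high value in WT replicate 5. *Crabp1* was most like *Kcna5* (r = 0.99) and *Lacc1* (r = 0.96), *Crabp2* most like *Gpc1* (r = 0.98) and *Gpr161* (r = 0.97), and *Rarb* most like *Ssr1* (r = 0.95) and *Pdzd8* (r = 0.94). With 8 points and 11463 candidates, these values of r are given as description only.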

How the data were processed

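The authors trimmed reads with cutadapt 1.12, aligned them to mm10 with TopHat2 2.1.0, and computed the deposited FPKM per gene with Cuffdiff 2.2.1. Their methods state quantile normalization, but upper quartiles differed between libraries (19.8 to 21.5 FPKM), and values were used as deposited. FPKM hold no counts, so no count model or counting interval was used. Relative depth was read from genes under 0.3 FPKM. Each bud was 1 library, with group and replicate number from the sample labels. The 13777 genes averaging 0.5 FPKM or more were fitted on log2(FPKM + 1) with genotype as the term, using limma 3.58.1 in R 4.3.3 with a mean-variance trend and two-sided Benjamini-Hochberg adjusted p-values at 0.05. A fold change on this scale understates changes of low genes. On simulated data with 200 of 13777 genes changed by 3 on the log2 scale, 199 were recovered with 14 false calls. A change of 3 is larger than any difference given here, so this recovery does not carry over to smaller differences.

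The 9 members, the retinoid lists and the marker lists were chosen with earlier results of these data known. Named genes were the members, *Lats1*, *Lats2*, the 3 most abundant genes of each retinoid list with those at an unadjusted p under 0.05, the 2 most abundant of each marker list, and the 2 genes most alike each member in the fit. Some genes that this rule names are not reported here. Leaving *Podxl* out of the mesothelium sum, and *Barx1* out of the mesenchyme sum, was chosen after their values were seen. Alternatives were the pseudocount, the filter on low values, quantile normalization, median-ratio scaling, array weights, no trend, a replicate block and leaving out each library. Summaries used Python 3.11.15 with pandas 2.3.3, and plots matplotlib 3.10.9.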

Additional observations from a re-analysis of the deposited data

Results flagged for a closer look

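In the group of 5 WT buds, 1 bud stood far from the rest, by Dixon's criterion, for 3 of the 43 genes examined. For normally spread values, chance alone gives this in about 1 in 20 groups. That rate does not hold for genes of few fragments, where many values are 0. *Aldh1a3* was at 0.316 FPKM in WT replicate 4, where the other WT buds were at 0 to 0.0607 FPKM. *Cyp26c1* was at 0.211 FPKM in WT replicate 2 and listed at 0 in the other WT buds, so any value above 0 there would have been flagged. With each gene's smallest value taken as 1 fragment, these were 11 and 3 fragments. *Lats2* was at 11.6 FPKM in WT replicate 5, where the other WT buds were at 14.0 to 14.7 FPKM.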

How the results depend on the processing

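With 3 mutant buds and genes of few fragments, precision is limited. The number of genes past the adjusted threshold over all genes was 2. It became 18 with a pseudocount of 0.1 FPKM, 174 with array weights, 1 without the mean-variance trend, and 0 to 19 when each library was left out, 0 without WT replicate 1, 2, 3 or 5 and 19 without *Lats1/2PanKO* replicate 3. Other retinoid pathway genes with an unadjusted p under 0.05 numbered 12, and 3 to 16 when each library was left out, 3 without *Lats1/2PanKO* replicate 3. None of the 44 passed the adjusted threshold in any of the 17 alternatives. The cause was not tested. Counting the genes under the filter, 7 of the 9 members were lower, and 6 to 8 under the alternatives. *Aldh1a2* stayed between -1.81 and -1.54 on the log2 scale. *Aldh1a1* was 2.53 with a pseudocount of 0.1 FPKM and 0.53 with array weights, which give unequal weight to libraries.

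Same-numbered WT and mutant buds showed little shared deviation (r = 0.09, -0.10 and 0.07, against -0.11 to 0.14 for differently numbered buds). With so few pairs, and deviations taken within small groups, this cannot exclude that the numbers pair the buds. With a replicate block over replicates 1 to 3, the count over all genes was 1 and that of other retinoid pathway genes 4. For the same 6 buds without the block, chosen after seeing the data, they were 1 and 5.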
